A study of Mus musculus with 21 samples.

Results

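Control spiral ganglion neurons from the base of the mouse cochlea were compared with those from its apex. The comparison rests on the 8 control libraries among the 21 of the series, chosen by their titles, with 4 of apex and 4 of base. Each library held RNA of about 50 neurons drawn up by micropipette at postnatal day 7 and amplified by Smart-seq2, a full-length cDNA method that starts from polyadenylated RNA. Control animals carried the genotype label WT and had received an adeno-associated virus with EGFP, so both regions share the virus and its fluorescent protein. The other 13 libraries carried a site-mutated HCN2 channel (DN-mHCN2, 4 apex and 3 base) or a truncated SK3 channel (truncated_SK3, 3 apex and 3 base), each described by the labels as dominant-negative, in the same kind of virus. They share no library with the control comparison and serve below as separate libraries of apex and base. In the labels each library is a biological replicate with no animal named, so p-values measure the spread between libraries. Promoter, serotype, sex and strain are not given in the sources used here.

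Spiral ganglion neurons are the first neurons of the auditory pathway. They are laid out by sound frequency, a map called tonotopy: neurons of the apex carry low frequencies and those of the base high frequencies. In the mature ganglion, potassium channels, calcium-binding proteins and neurotrophins are known to vary along this axis. At postnatal day 7 mice do not yet hear, and the ganglion fires in patterned bursts driven by the cochlea itself. Most of its cells are type I neurons, which contact inner hair cells, and a minority are type II neurons, which contact outer hair cells.

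Total counts of the control libraries ran from 11744430 to 14557161, with 14567 to 15243 genes at 1 count or more. All 16 neuronal markers checked were detected in both regions. Summed over the 16, they stood at 17962, 16592, 16572 and 16367 CPM (reads scaled to a common library total) in apex replicates 1 to 4 and at 15319, 16227, 13892 and 14306 CPM in base replicates 1 to 4. Every base library was thus below every apex library in this sum, though the closest 2 were at 16367 and 16227 CPM. Of the 16 genes, 4 had a positive log2 change (base minus apex) in a fit of all 21 libraries. Nefl and Nefm had means of 4060 and 3021 CPM in the apex and 3214 and 2430 CPM in the base. Snap25 was at 3602 and 3537 CPM, and Rbfox3 went the other way, at 54.8 and 93.3 CPM. The sum without the neurofilament genes was not taken. Schwann cell and myelin markers, 21 genes, summed to 18555, 12901, 17608 and 20399 CPM in the apex and 28432, 15992, 30734 and 25128 CPM in the base. In both regions this sum was above the neuronal one in replicates 1, 3 and 4 and below it in replicate 2.

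No gene was called higher or lower in the base than in the apex of control in the comparison as designed, in which all 21 libraries shared 1 estimate of spread per gene. This was 0 of 14968 genes tested (0%) at a false discovery rate of 0.05 in edgeR, and the lowest adjusted p was 0.209. An unadjusted p under 0.05 was found for 722 genes (4.82%). The genes with the smallest p-values were Chrna4, Kcnip4 and Otog, all with lower values in the base. DESeq2 on the same 21 libraries called 82 genes, and limma-voom 42.

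An alternative fit of the 8 control libraries by themselves called 37 of 13421 genes tested (0.276%), 20 with higher and 17 with lower values in the base. It was planned as an alternative and is described here because the designed fit gave no call, a choice made after both results were seen. Of the 37 genes, 35 had an unadjusted p under 0.05 in the fit of all 21 libraries and none passed there, the lowest adjusted p among them being 0.247. Control libraries varied less among themselves than the rest. The median SD of log2 CPM over 9944 genes was 0.211 in control apex and 0.251 in control base, against 0.322 to 0.396 in the 4 groups with a channel construct. Leaving out 1 library at a time moved the count of 37 to between 12 (without apex replicate 1) and 122 (without base replicate 2). The calls of Adgrl2, Anxa5, Cdh22, Crym, Htra1, Igfbp6, Kcns3 and Klk8 held in all 8 such fits. Of these, Klk8 was not called by limma-voom on the control libraries (adjusted p = 0.26). Fam43b, Myh4, Plcb1, Sema3e, Sh3bgr, Tectb, Tenm3 and Usp11 held in 2 of the 8 fits. Cttnbp2, Hspb8, Pak3, Rab33a and Tmem229b held in 1, and Plxdc2 in 0.

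Among the 37, genes with higher values in the base included Adgrl2, Cdh22, Lsamp, Wnt5a and Igfbp6, of cell adhesion and secreted signals. Genes with higher values in the apex included the potassium channel subunits Kcns3 and Kcnab1, the thyroid hormone-binding protein gene Crym, the adhesion genes Opcml and Tenm3 and the guidance gene Sema3e. In the gene descriptions that follow, the log2 changes (base minus apex) and edgeR adjusted p-values are those of the 8 control libraries by themselves unless the fit of all 21 is named, and "called" refers to that fit. The 37 genes, and others named for their families, were chosen after their values were seen. The 4 libraries of one region lay apart from the 4 of the other for all 37. The 37 were called on these same 8 libraries, which favours such separation, so it is no further evidence. It was found for 772 of the 13421 genes of that fit, and for 821 of the 14968 genes (5.49%) tested with all libraries.

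Crym and 2 potassium channel genes had higher values in the apex. Crym (chromosome 7, 120186380 to 120202111) encodes mu-crystallin, a cytosolic protein that binds thyroid hormone. It stood at 123, 77.5, 114 and 86.9 CPM in the 4 apex libraries and 26.6, 33.4, 30.5 and 22 CPM in the 4 base libraries, a log2 difference of -1.84 (SE 0.186) with an edgeR adjusted p of 0.00325. The lowest apex library was more than 40 CPM above the highest base library. Kcns3 (chromosome 12, 11090202 to 11151056) encodes a subunit that is silent alone and joins Kv2 channels. Its level was 71.8, 82, 94.9 and 82.8 CPM in the apex and 39.8, 43.7, 40.9 and 29 CPM in the base, a log2 difference of -1.11 (SE 0.156) with an edgeR adjusted p of 0.0172. Apex libraries lay close together and base replicate 4 was the lowest of all. Kcnab1 (chromosome 3, 65109384 to 65378223), the gene of a cytoplasmic beta subunit of Kv1 channels, was at 47.5, 30.1, 29.8 and 44.7 CPM in the apex and 16, 8.62, 10.4 and 5.77 CPM in the base (log2 change -1.90, SE 0.303, edgeR adjusted p = 0.0302). Its exons overlap an antisense gene, and whether reads were counted by strand is not given in the sources used here. The sister beta subunit gene Kcnab2 went the other way in its values, with 178 to 197 CPM in the apex against 203 to 334 CPM in the base, and was not called (log2 change 0.56, edgeR adjusted p = 0.142). In these pooled cells a lower level can mean fewer cells of a type or less RNA per cell, and the 2 cannot be told apart.

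Signalling genes of the apex included P2rx3 and Plcb1. P2rx3, the gene of an ATP-gated cation channel subunit, was at 71.8, 59.4, 36.7 and 29.6 CPM in the apex and 17.9, 10.1, 16 and 12.5 CPM in the base, a log2 difference of -1.81 (SE 0.293) with an edgeR adjusted p of 0.0357. Its exons overlap those of Ssrp1 on the other strand, so its value is uncertain. Plcb1, a phospholipase C that G protein-coupled receptors activate, was at 46.7 to 56.7 CPM in the apex against 21.6 to 34.3 CPM in the base (log2 change -0.99, SE 0.173, edgeR adjusted p = 0.0426). Anxa5, a calcium-dependent phospholipid-binding protein, was at 594, 644, 729 and 542 CPM in the apex and 355, 332, 359 and 393 CPM in the base, a log2 difference of -0.81 (SE 0.104) with an edgeR adjusted p of 0.0115. The difference was small beside those above, yet every apex library was more than 100 CPM above every base library. Pak3, a kinase of actin regulation in neurons, had a log2 change of -0.80 (edgeR adjusted p = 0.0483), the deubiquitinase gene Usp11 one of -1.09 (edgeR adjusted p = 0.0394), the cortactin-binding gene Cttnbp2 one of -0.71 (edgeR adjusted p = 0.0399) and Plxdc2 one of -0.75 (edgeR adjusted p = 0.0483). Plxdc2 kept its call in none of the 8 fits without 1 library.

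**Figure D1:**
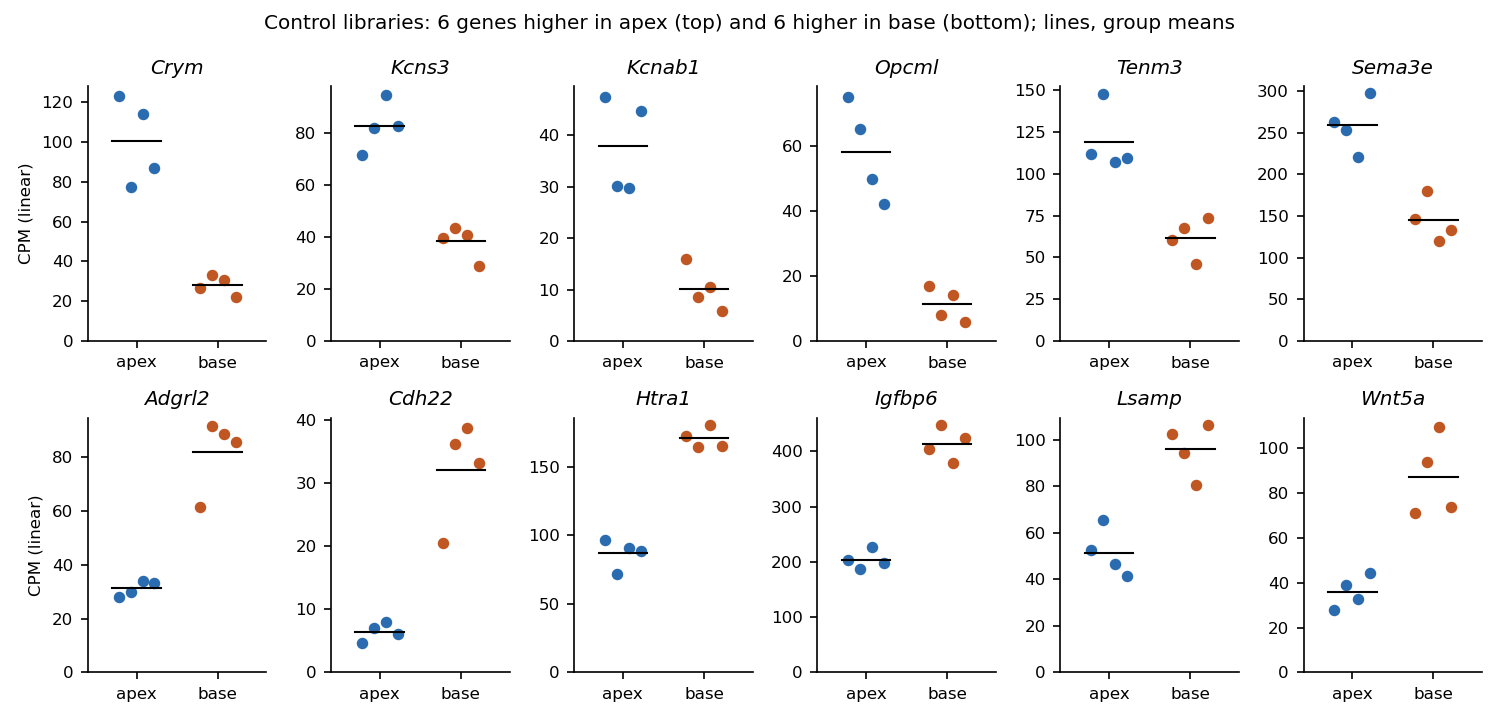
Levels of 12 genes in each control library, in CPM on linear axes that start at 0; each point is a library (blue apex, orange base, replicates 1 to 4 from left to right) and each line a group mean. For every gene shown the 4 libraries of one region lie apart from the 4 of the other, as for Crym at 77.5 to 123 CPM in the apex against 22 to 33.4 CPM in the base. The 12 genes were taken from the calls on these libraries, so the separation is no further evidence.

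Genes of known adhesion partners had opposite values. Adgrl2 (chromosome 3, 148815583 to 148990555) encodes a latrophilin, an adhesion receptor known to bind teneurins across synapses. It was at 27.9, 29.7, 34.2 and 33.4 CPM in the apex and 61.4, 91.6, 88.5 and 85.8 CPM in the base, a log2 difference of 1.38 (SE 0.154) with an edgeR adjusted p of 0.00447. Base replicate 1 was the lowest of the base libraries and still more than 25 CPM above the highest apex library. Tenm3 (chromosome 8, 48227682 to 48843951), a teneurin gene, was at 112, 148, 107 and 109 CPM in the apex and 60.3, 67.4, 46.1 and 73.5 CPM in the base, a log2 difference of -0.95 (SE 0.161) with an edgeR adjusted p of 0.0399. The related genes Adgrl1, Adgrl3, Tenm2 and Tenm4 had log2 changes of -0.03, -0.19, -0.07 and -0.09, with edgeR adjusted p-values of 0.975, 0.812, 0.963 and 0.959. Exons of Adgrl2 and Tenm3 each overlap a predicted antisense gene.

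IgLON genes, which encode immunoglobulin proteins anchored to the membrane by a lipid, also went both ways. Lsamp was at 52.5, 65.7, 46.7 and 41.3 CPM in the apex and 102, 94.3, 80.7 and 106 CPM in the base (log2 change 0.89, SE 0.157, edgeR adjusted p = 0.0429). Opcml was at 75.1, 65.4, 49.7 and 42.1 CPM in the apex and 16.8, 8.06, 14.2 and 5.91 CPM in the base (log2 change -2.37, SE 0.329, edgeR adjusted p = 0.0201). All 4 apex libraries were over 40 CPM for Opcml and all 4 base libraries under 17 CPM. For Ntm and Negr1, of the same family, the values were lower in the base but not called, at -0.58 (edgeR adjusted p = 0.382) and -1.33 (edgeR adjusted p = 0.142). Ntm overlapped between regions through base replicate 1 at 122 CPM, while Negr1 lay at 10.4 to 17.4 CPM in the apex against 3.53 to 7.21 CPM in the base.

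Cadherin and guidance genes were among the calls as well. Cdh22 (chromosome 2, 165111507 to 165234853), a classical cadherin gene, was at 4.72, 7.02, 8 and 6.12 CPM in the apex and 20.5, 36.1, 38.7 and 33.2 CPM in the base, a log2 difference of 2.31 (SE 0.263) with an edgeR adjusted p of 0.00447. Even the lowest base library, replicate 1, exceeded the highest apex library more than 2 times. Sema3e, a secreted semaphorin that signals through plexin D1, was at 263, 254, 221 and 297 CPM in the apex and 147, 179.8, 121 and 133 CPM in the base (log2 change -0.84, SE 0.138, edgeR adjusted p = 0.0377). Sema3a, a repellent of axons, was not called, with 54.1, 34.7, 50.4 and 47.5 CPM in the apex and 11.8, 15.2, 16 and 29.8 CPM in the base (log2 change -1.36, edgeR adjusted p = 0.0753). Wnt5a, a secreted ligand of non-canonical Wnt signalling, was at 27.9, 39, 32.5 and 44.5 CPM in the apex and 71.1, 93.8, 109.6 and 73.9 CPM in the base (log2 change 1.27, SE 0.187, edgeR adjusted p = 0.0204). The ephrin receptor gene Ephb1, not called, was at 10.6 to 19.8 CPM in the apex against 22.1 to 79.1 CPM in the base (log2 change 1.73, edgeR adjusted p = 0.0949).

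Genes of secreted proteins and of a stress protein had higher values in the base. Igfbp6 (chromosome 15, 102144362 to 102149511), which encodes a binding protein of insulin-like growth factors, stood at 203, 187, 228 and 198 CPM in the apex and 405, 448, 379.6 and 424 CPM in the base, a log2 difference of 1.02 (SE 0.0959) with an edgeR adjusted p of 0.00307. Its adjusted p was the smallest of the fit, and the groups were tight around their means of 204 ± 17.1 and 414 ± 29.2 CPM (SD, n = 4 each). Htra1 (chromosome 7, 130936111 to 130985660), a secreted serine protease gene, was at 96.5, 71.9, 90.5 and 88.9 CPM in the apex and 173, 165, 181 and 166 CPM in the base (log2 change 0.97, SE 0.114, edgeR adjusted p = 0.00486). Hspb8, a small heat shock protein gene, was at 23.7 to 31.5 CPM in the apex against 43.1 to 63 CPM in the base (log2 change 0.91, edgeR adjusted p = 0.0458). Serping1, the gene of the C1 inhibitor of complement, lay at 6.89, 8.26, 6.84 and 9.38 CPM in the apex and 47.8, 56.2, 89.6 and 16.3 CPM in the base (log2 change 2.74, SE 0.439, edgeR adjusted p = 0.0426). Its base values were uneven, with replicate 4 the lowest. The fibroblast marker sum was lowest in that same base library, at 445 CPM against 1118 to 3848 CPM in the other 3. In apex replicates 1 to 4, where Serping1 was low throughout, that sum was 306, 415, 1020 and 1152 CPM. What part fibroblasts have in Serping1 was not tested.

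Among genes of synapses and of membranes, Gsg1l, an auxiliary subunit of AMPA receptors, was at 12.9, 10.4, 14.3 and 13.1 CPM in the apex and 24.7, 43.3, 41.5 and 36.4 CPM in the base, a log2 difference of 1.52 (SE 0.216) with an edgeR adjusted p of 0.0188. Sphkap, which anchors protein kinase A, was at 11 to 23.6 CPM in the apex against 48.9 to 79.1 CPM in the base (log2 change 1.74, edgeR adjusted p = 0.0172). The membrane protein genes Tmem132c and Tmem229b had log2 changes of 1.32 (edgeR adjusted p = 0.0218) and 0.55 (edgeR adjusted p = 0.0399). That of Tmem229b was the smallest of the 37. The small GTPase gene Rab33a had a log2 change of 0.76 (edgeR adjusted p = 0.0399). Zfp365 and Plekhd1 were at 7.59 to 17.6 and 3.79 to 6.79 CPM in the apex and at 38.1 to 72 and 15.1 to 35.8 CPM in the base, with log2 changes of 2.10 (edgeR adjusted p = 0.0257) and 2.34 (edgeR adjusted p = 0.0204).

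Muscle-type and low-level genes completed the calls of the base. Cox8b, a cytochrome oxidase subunit isoform of muscle, was at 12.5, 11.5, 24.9 and 18.4 CPM in the apex and 40.7, 81.4, 54.3 and 69.3 CPM in the base (log2 change 1.86, SE 0.282, edgeR adjusted p = 0.0267). Sh3bgr was at 4.73 to 9.52 CPM and 16.1 to 34 CPM (log2 change 1.76, edgeR adjusted p = 0.0394). Myh4, a fast myosin heavy chain gene, was at 1.01, 1.08, 0.474 and 0.695 CPM in the apex and 2.09, 12.2, 21.3 and 13.3 CPM in the base (log2 change 3.90, SE 0.653, edgeR adjusted p = 0.0394). It shares 18.9% of its 50-base stretches with Myh1, so reads of the 2 may be mixed. Cdk18, a kinase gene, was at 0.155, 0.54, 1.29 and 0.347 CPM in the apex and 18.9, 7.49, 5.29 and 22.6 CPM in the base (log2 change 4.5, SE 0.7, edgeR adjusted p = 0.0272). Fam43b was at 3.7 to 9.44 CPM in the apex against 17.2 to 55.7 CPM in the base (log2 change 2.20, edgeR adjusted p = 0.0399), but shares 34.5% of its stretches with an antisense gene. Its value is uncertain for that reason. Of the 37, 10 have exons that overlap an antisense gene (Adgrl2, Cdk18, Cttnbp2, Fam43b, Kcnab1, Klk8, P2rx3, Plcb1, Tenm3 and Wnt5a), which leaves their values uncertain without the strand setting, and 3 share at least 10% of their sequence with another gene.

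Large differences among genes with higher values in the apex included those of Tectb, Tmprss6 and Klk8. Tectb (chromosome 19, 55180733 to 55196313) encodes beta-tectorin of the tectorial membrane, the gel that lies over the hair cells. It stood at 281, 454, 1009 and 120.2 CPM in the apex and 3.49, 2.33, 0.95 and 1.9 CPM in the base, a log2 difference of -7.77 (SE 0.911) with an edgeR adjusted p of 0.0399. Tmprss6, a membrane serine protease gene, was at 4.03 to 16.1 CPM in the apex against 0.353 to 0.959 CPM in the base (log2 change -4.03, edgeR adjusted p = 0.0296). Klk8, a secreted serine protease gene, was at 9.06, 5.71, 23.4 and 10.01 CPM in the apex and 0.349, 0.0707, 0.271 and 0.141 CPM in the base (log2 change -5.82, SE 0.662, edgeR adjusted p = 0.00447); it shares 26.2% of its stretches with an antisense gene and is uncertain. Apex replicate 3 was the highest library for each of these 3 genes. The Tectb call held in 2 of the 8 fits without 1 library, that of Tmprss6 in 4 and that of Klk8 in 8. Limma-voom on the control libraries did not call Tectb, Tmprss6 or Klk8 (adjusted p = 0.347, 0.329 and 0.26).

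The marker sum of supporting cells and otic epithelium, a list that holds Tectb, was higher in the apex, and its separation of the regions rested on that gene. Its 16 members, Tectb among them and all detected in both regions, summed to 541, 1263, 2742 and 804 CPM in the apex and 249, 433, 483 and 144 CPM in the base. Without Tectb, the other 15 summed to 260.2, 809, 1734 and 684 CPM in the apex and 246, 431, 482 and 142 CPM in the base. Apex replicate 3 was the highest with and without Tectb, and apex replicate 1 lay above every base library only with it. Of the 16 genes 5 had a positive log2 change, with a median of -1.04 in the fit of all 21 libraries. The most abundant members besides Tectb were Epyc, at 133, 6.17, 864 and 293 CPM in the apex and 1.74, 61.3, 58.1 and 4.22 CPM in the base, and Emilin2, at 14.9, 255, 267 and 207 CPM and 24.4, 24.7, 58.9 and 38.3 CPM. Epyc overlapped between regions and shares 39.8% of its stretches with an antisense gene, and Emilin2 overlapped through apex replicate 1. Otog, the otogelin gene of the same list, was at 2.94, 105, 104 and 6.19 CPM in the apex and 1.13, 0.0707, 0.407 and 0.985 CPM in the base (log2 change -6.42, edgeR adjusted p = 0.226). The part of RNA from such cells in these 3 calls was not tested.

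The 13 libraries with a channel construct gave values for the same genes in libraries the control comparison does not use. Their regions differ in other cells too. The supporting cell and otic epithelium sum was 3285 to 4732 CPM in truncated_SK3 apex against 196 to 584 CPM in its base. In DN-mHCN2 it was 1318 to 10755 CPM in the apex and 331 to 2845 CPM in the base, with overlap. The part of such cells in the values below was not tested. In the fit of all 21 libraries, 31 of the 37 had the same sign in DN-mHCN2 (83.8%, against 54.5% of 13421 genes) and 35 in truncated_SK3 (94.6%, against 60.8%). Those contrasts called 32 (0.214%) and 2 (0.0134%) of all genes. As the mean of both conditions 36 had the same sign and 4 were called (Anxa5, Htra1, Adgrl2 and Fam43b), where 28 of 14968 genes (0.187%) were called in all. That fit shares its spread estimate with the control libraries. In a fit of the 13 libraries by themselves, added after the values were seen, 36 of the 37 again had the same sign (97.3%, against 59.8% of 13326 genes). An unadjusted p under 0.05 with the same sign was found there for 23 of the 37 (62.2%, against 5.8% of all, where 8.24% of genes had such a p with either sign), and 0 were called, where edgeR called 3 of 14408 genes (0.0208%).

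P2rx3 was the exception in sign, at 8.88 to 197 CPM in DN-mHCN2 apex and 43.9 to 113 CPM in its base, and at 7.07 to 23.1 CPM in truncated_SK3 apex and 17.5 to 32.8 CPM in its base. Usp11 turned in truncated_SK3 (0.04) and kept its sign in the mean, with a difference of -0.07 (SE 0.273, unadjusted p = 0.797). The mean differences given from here on as those of the 13 libraries are from the fit of these libraries by themselves.

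**Figure D2:**
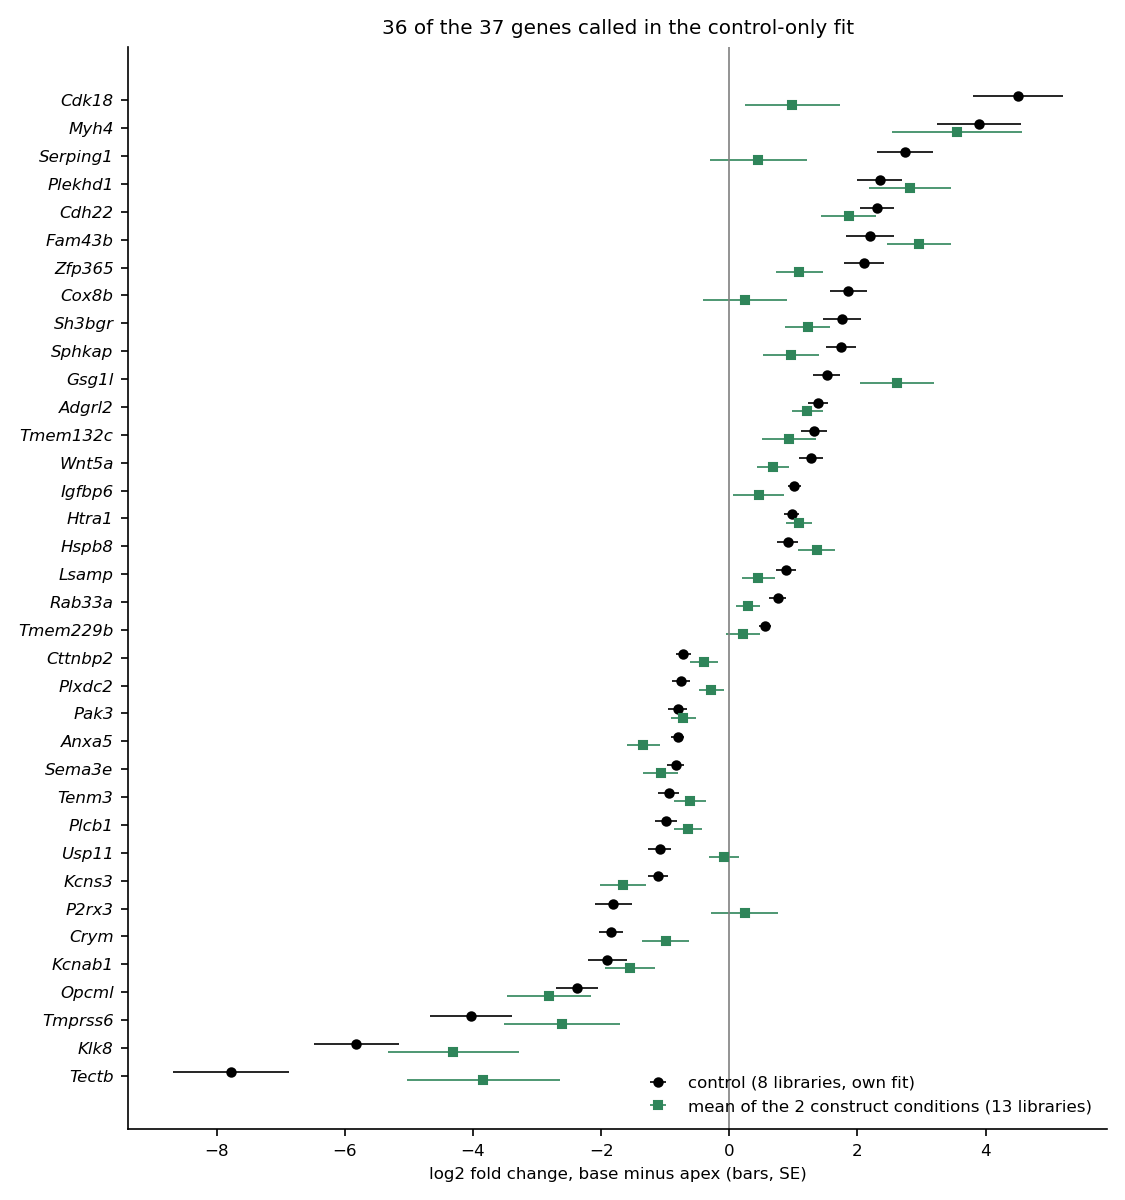
Base minus apex log2 fold change of 36 of the 37 genes called in the control libraries, in control (black circles, fit of 8 libraries) and as the mean of the 2 construct conditions (green squares, from the fit of all 21 libraries), with SE bars. Green squares lie on the same side of 0 as the black circles for 35 of the 36 genes drawn, and P2rx3 is the one that crosses.

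Adgrl2 was at 9.54 to 21.5 CPM in DN-mHCN2 apex against 32.1 to 72 CPM in its base, and at 20.2 to 42 CPM in truncated_SK3 apex against 31.1 to 55.6 CPM in its base. Regions did not overlap in DN-mHCN2 and overlapped in truncated_SK3. The mean difference was 1.23 (SE 0.284, unadjusted p = 0.000653). Htra1 had 1.08 (SE 0.249, unadjusted p = 0.000635) and Anxa5 -1.33 (SE 0.304, unadjusted p = 0.000694). For Crym the values were 64.5 to 177 and 29.5 to 183 CPM in apex and base of DN-mHCN2 and 31.1 to 85.9 and 9.38 to 29 CPM in those of truncated_SK3, so only the latter condition kept the regions apart. Igfbp6 likewise was split in truncated_SK3, at 171 to 290.4 and 339 to 554 CPM, and not in DN-mHCN2, at 38.6 to 155 and 20.2 to 241 CPM. Cdh22 was at 0.914 to 13.3 and 8.7 to 26.5 CPM in apex and base of DN-mHCN2, where regions overlapped, and at 4.67 to 8.91 and 32 to 45.4 CPM in those of truncated_SK3. Opcml was at 23.1 to 48.5 CPM in DN-mHCN2 apex and 0.0917 to 8.97 CPM in its base, without overlap.

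Whether the regional difference itself differed from control was tested as an interaction in the fit of all 21 libraries. Of the 37 genes, 0 were called for DN-mHCN2 and 0 for truncated_SK3, with lowest edgeR adjusted p-values of 0.348 and 1, and 7 and 5 had an unadjusted p under 0.05. Over all 14968 genes the interactions called 1 gene (0.00668%) for DN-mHCN2 and 0 (0%) for truncated_SK3, with 1026 (6.85%) and 545 (3.64%) unadjusted p-values under 0.05. A miss of the threshold does not show that the regional differences were alike.

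The smallest p-values of control in the fit of all 21 libraries led mostly to other genes. Chrna4 (chromosome 2, 181018380 to 181043546), the alpha 4 subunit of neuronal nicotinic acetylcholine receptors, was at 60.3, 34.2, 54.1 and 35.6 CPM in control apex and 14.9, 4.03, 9.97 and 14.1 CPM in control base. Every apex library was above every base library. Its log2 change was -2.10 (SE 0.371, edgeR adjusted p = 0.209) in that fit and -2.11 (SE 0.369, edgeR adjusted p = 0.0533) in the control libraries by themselves, so it missed the threshold in both. In the fit of all 21 libraries the mean of the 2 construct conditions was called, at -1.73 (SE 0.294, edgeR adjusted p = 0.0198), as was the mean of the 3 conditions, at -1.86 (SE 0.232, edgeR adjusted p = 0.000481), where 173 of 14968 genes (1.16%) were called. In the 13 construct libraries by themselves its log2 change was -1.73 with an edgeR adjusted p of 0.05001, above the threshold. Its levels there were 54.9, 97.4, 64.4 and 49.8 CPM in DN-mHCN2 apex and 12.7, 30.6 and 16.5 CPM in its base, 30.9, 27.1 and 47.6 CPM in truncated_SK3 apex and 10.7, 8.31 and 13 CPM in its base. Apex libraries were thus above base libraries within each of the 3 conditions. Chrnb2, the usual partner subunit, overlapped between regions in control, at 104 to 139.6 CPM in the apex against 93.9 to 146 CPM in the base.

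Kv channel-interacting proteins, calcium-binding subunits of the fast-inactivating Kv4 channels, had values in opposite directions. Kcnip4 (chromosome 5, 48389502 to 49524907) was at 13.6, 21.8, 29.9 and 36.3 CPM in control apex and 3.92, 2.9, 1.22 and 8.51 CPM in control base. Its log2 change was -2.62 (SE 0.512, edgeR adjusted p = 0.228) in the fit of all 21 libraries and -2.62 (SE 0.531, edgeR adjusted p = 0.0881) in control by itself, not called in either. In the 13 construct libraries it was called, at -4.76 (SE 0.406, edgeR adjusted p = 0.000148), with 17.2 to 69.9 CPM in DN-mHCN2 apex, 0.734 to 0.87 in its base, 48.4 to 68.6 in truncated_SK3 apex and 2.18 to 7.45 in its base. All apex libraries of the 3 conditions exceeded all base libraries. Kcnip1 was called there in the other direction, at 1.19 (SE 0.139, edgeR adjusted p = 0.00361). In control it overlapped between regions, with 107, 84.7, 70.1 and 117 CPM in the apex and 124, 118, 97.4 and 118 CPM in the base (log2 change 0.27, edgeR adjusted p = 0.621). Kcnip2 was at 80.7, 61.5, 61.1 and 86.5 CPM in control apex and 107, 109.6, 93.2 and 111 CPM in control base (log2 change 0.54, edgeR adjusted p = 0.166), without overlap. Kcnip3 was at 18.9 to 28.2 CPM in the apex against 21.6 to 53.8 CPM in the base (log2 change 0.74, edgeR adjusted p = 0.326). The channel genes that these subunits join were low: Kcnd2 lay at 7.26 to 18.8 CPM in the apex against 1.83 to 12.6 CPM in the base, and Kcnd3 did not exceed 6.26 CPM in control. Exons of Kcnip4 overlap antisense genes.

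**Figure D3:**
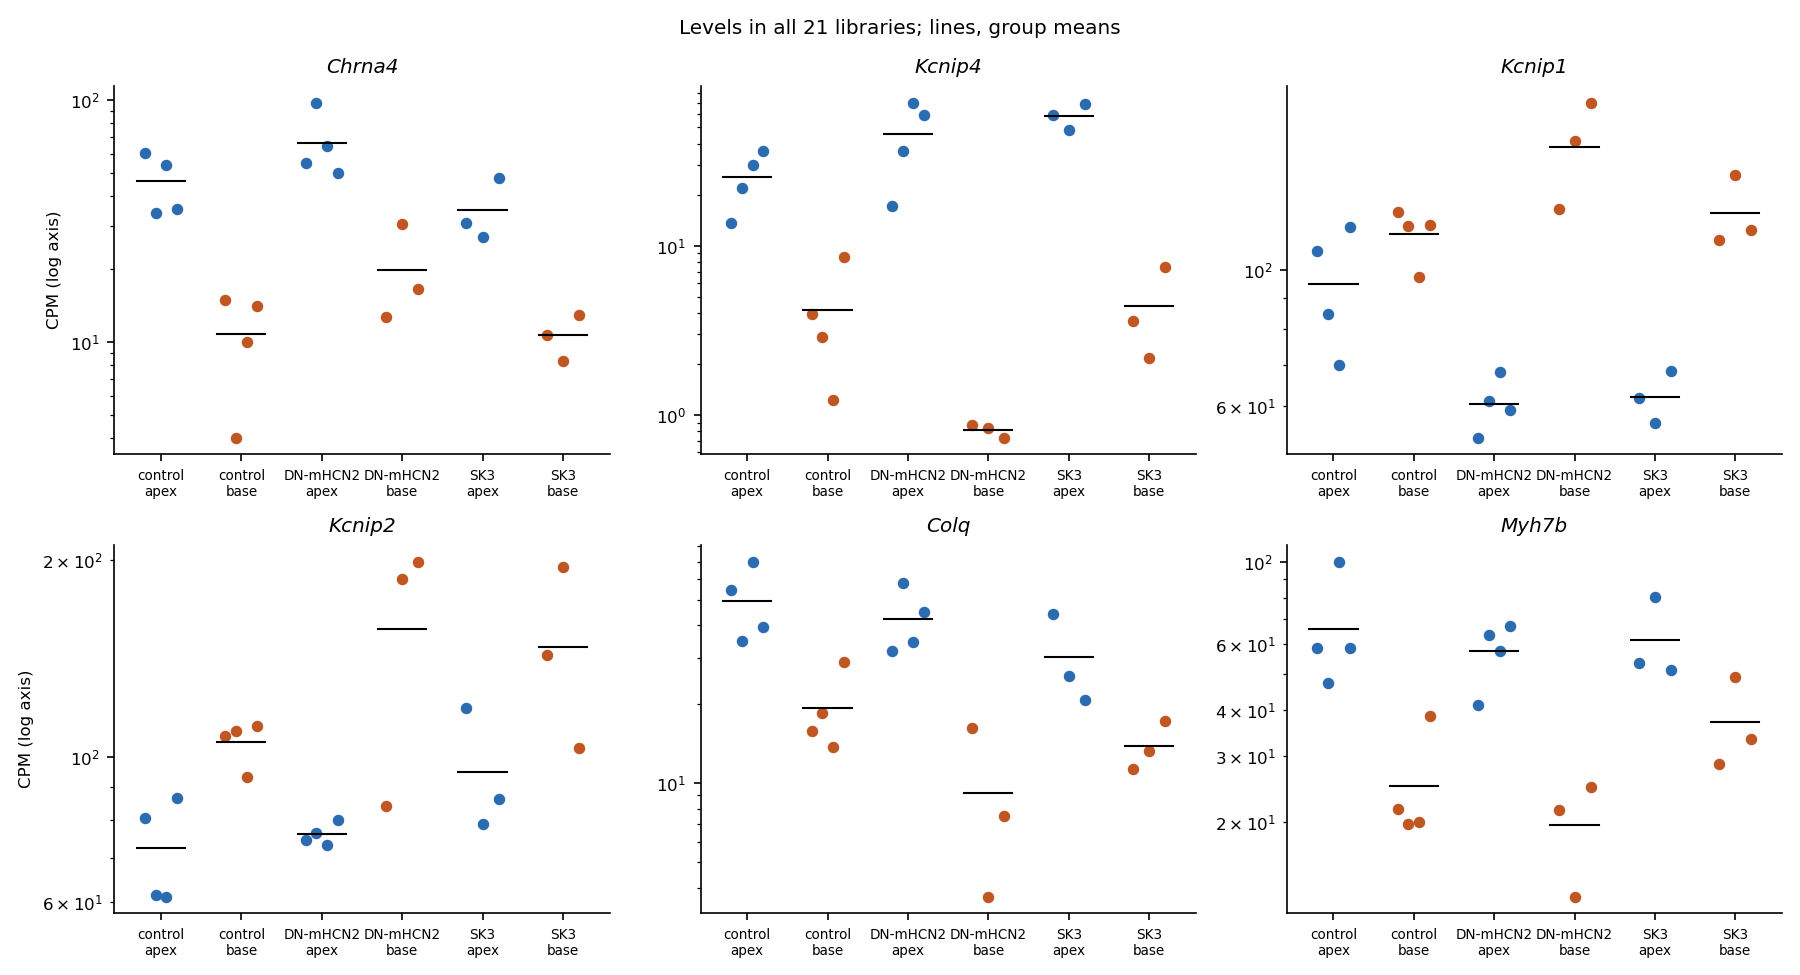
Levels of 6 genes in all 21 libraries, in CPM on log axes, by condition and region (blue apex, orange base; points are libraries, lines group means). Chrna4 and Kcnip4 lie higher in the apex in each of the 3 conditions, whereas Kcnip1 overlaps between regions in control at 70.1 to 117 and 97.4 to 124 CPM and is apart in the 2 construct conditions.

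Other apex-high genes with small p-values were Myh7b and Colq. Myh7b, a myosin heavy chain gene that hosts a microRNA, was at 58.6, 47.1, 99.9 and 58.7 CPM in the apex and 21.6, 19.8, 20.02 and 38.4 CPM in the base (log2 change -1.41, edgeR adjusted p = 0.0772), and its exons overlap those of Trpc4ap on the other strand, so its value is uncertain. Colq, the collagen tail that anchors acetylcholinesterase, was at 54.6, 35, 69.9 and 39.3 CPM in the apex and 15.9, 18.6, 13.7 and 29.1 CPM in the base (log2 change -1.37, edgeR adjusted p = 0.0772). Neither was called in control, and in the 13 construct libraries they were at -1.13 (SE 0.224, unadjusted p = 0.00017) and -1.65 (SE 0.34, unadjusted p = 0.000237). B4galnt3, a glycosyltransferase gene, stood at 2.17, 5.87, 8.47 and 1.46 CPM in the apex and 0.61, 0.0707, 0.136 and 0.0704 CPM in the base (log2 change -4.34, edgeR adjusted p = 0.104). Otog, given above, was called in the 13 construct libraries, at -4.35 (SE 0.609, edgeR adjusted p = 0.0334). The same mean missed the threshold in the fit of all 21 libraries (edgeR adjusted p = 0.062), and the 2 conditions were far apart there. Its log2 change was -7.82 (SE 1.52, unadjusted p = 8.73e-05) in truncated_SK3 and -0.90 (SE 1.02, unadjusted p = 0.392) in DN-mHCN2. Levels were 27.1, 198 and 115 CPM in truncated_SK3 apex and 0.51, 0.484 and 0.484 CPM in its base, and 18.9, 16.7, 38.4 and 71 CPM in DN-mHCN2 apex and 11.3, 7.6 and 39.5 CPM in its base, where regions overlapped. The interaction of DN-mHCN2 with control was 5.51 (SE 1.51, unadjusted p = 0.00203, edgeR adjusted p = 0.303).

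Genes known or proposed to vary along the tonotopic axis, a list of 24, had 0 calls in either fit. All 24 were tested in the fit of all 21 libraries, where 0 of 14968 genes were called. In the control libraries by themselves 22 were tested, where 37 of 13421 genes (0.276%) were called. At such shares 0 calls in a list this short say little about it. Every base library was above every apex library for 1 of them, Kcnip2 (4.17%, against 2.64% of all genes), and the reverse held for 0. Kcnip2 was called as the mean of the 3 conditions in the fit of all 21 libraries (0.74, edgeR adjusted p = 0.0154). That mean called 173 of 14968 genes (1.16%), and Bdnf missed the threshold there (-3.46, edgeR adjusted p = 0.0594). In control the median log2 change of the 24 was 0.07 in the fit of all 21 libraries, against 0.003 over all tested genes, and 14 of the 24 were positive. The Kv1 and Kv3 channel genes of the list overlapped between regions. Kcna1 lay at 423 to 568 CPM in the apex against 482 to 635 CPM in the base, Kcna2 at 271 to 327 and 272 to 374, and Kcnc1 at 199 to 235 and 115 to 327. The BK channel gene Kcnma1 was at 75 to 108 CPM in the apex against 63.6 to 104 CPM in the base. Hcn2, of the channels that carry the hyperpolarization-activated current, was at 38.2, 19.8, 18.8 and 39.4 CPM in the apex and 62, 89.8, 9.84 and 85 CPM in the base (log2 change 1.08, edgeR adjusted p = 0.63), where base replicate 3 was the lowest library of all and the other 3 base libraries the highest. The SK channel gene Kcnn3 did not exceed 1.49 CPM.

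Receptors of neurotrophins overlapped between regions. Ntrk2 was at 165 to 207 CPM in the apex against 164 to 206 CPM in the base, with a log2 change of 0.01 (SE 0.205) in the fit of all 21 libraries. Ntrk3 was at 139 to 159 and 122 to 171 CPM, with 0.07 (SE 0.276). The ligand genes were low, Bdnf at 0.929, 10.3, 0.407 and 4.24 CPM in the apex and 0.61, 0.424, 1.36 and 1.97 CPM in the base and Ntf3 under 1 CPM throughout. Syt2 and Snap25, of the vesicle release machinery, had 0.10 (SE 0.199) and -0.03 (SE 0.202).

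Genes that mark subtypes of type I neurons were spread within regions. Calb2, which encodes calretinin, was at 5569.5, 5589, 5802 and 5001 CPM in the apex and 7581, 3308, 5013 and 4069 CPM in the base (log2 change -0.14, edgeR adjusted p = 0.893). Base libraries covered a wider range than apex libraries. Calb1, calbindin, was at 102, 253, 31.1 and 85.8 CPM and 36.1, 75.3, 16.4 and 44.3 CPM (log2 change -1.46, edgeR adjusted p = 0.567). Lypd1 and Pou4f1 were at 25.7 to 74.4 and 34.2 to 94.5 CPM in the apex against 24.8 to 106 and 36.3 to 79.8 CPM in the base. Pcdh20, another subtype marker, was at 57.6, 77.3, 56.9 and 49.3 CPM in the apex and 109, 76.3, 89.6 and 108 CPM in the base (log2 change 0.66, edgeR adjusted p = 0.142). The type II marker Prph was at 5.73, 9.42, 3.66 and 1.74 CPM in the apex and 10.02, 23.7, 6.72 and 6.19 CPM in the base (log2 change 1.18, edgeR adjusted p = 0.508), low in all 8 libraries. Of the transcription factors of the list, Nr2f1 was at 7.74 to 21.8 CPM in the apex against 6.57 to 11.8 CPM in the base (log2 change -0.85, edgeR adjusted p = 0.395), and Nr2f2 at 24.8 to 56.9 and 26.4 to 49.1 CPM.

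Lists of channels, synaptic and axonal genes held 0 to 2 calls each in the control libraries by themselves, where 37 of 13421 genes (0.276%) were called. Of 41 potassium channel genes tested there, 2 were called (4.88%), both lower in the base. Of 51 synaptic adhesion genes 2 were called (3.92%), Adgrl2 with higher and Tenm3 with lower values in the base. Of 27 cadherins and protocadherins 1 was called (3.70%), Cdh22, and of 45 genes of semaphorin, plexin, Slit, Robo and netrin signalling 1 (2.22%), Sema3e. Lists of sodium and HCN channels (16 tested), calcium channels and calcium binding (28), synaptic vesicle (35), active zone (20) and glutamate receptors (32) had 0 calls. The medians of these 5 lists ran from -0.14 to 0.04 in the fit of all 21 libraries, and that of the potassium channels was 0.07.

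Regions that did not overlap were counted among the genes tested with all 21 libraries. Over all 14968, every base library lay above every apex library for 395 genes (2.64%), and the reverse held for 426 (2.85%). In the potassium channel list these counts were 2 (4.35%) and 4 (8.70%) of 46, and in the adhesion list 4 (7.27%) and 7 (12.7%) of 55. They were 4 (13.8%) and 2 (6.90%) of 29 cadherins and protocadherins, and 0 and 4 (8.70%) of 46 semaphorin signalling genes. The called genes are among them. For synaptic vesicle genes they were 0 and 3 (8.57%) of 35, and for glutamate receptors 1 (2.94%) and 3 (8.82%) of 34.

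Adhesion genes with regions apart but no call included Cntn5, L1cam, Slitrk3 and Amigo2. Cntn5, a contactin, was at 47.3 to 59.8 CPM in the apex against 70.5 to 99.8 CPM in the base (log2 change 0.70, edgeR adjusted p = 0.0841), and 0.87 (SE 0.206, unadjusted p = 0.000798) in the 13 construct libraries. L1cam, an axonal adhesion molecule, lay at 114 to 149 CPM in the apex against 64.3 to 92.4 CPM in the base (log2 change -0.72, edgeR adjusted p = 0.0735). Slitrk3 was at 53 to 76.9 and 25.5 to 45.8 CPM (log2 change -0.86, edgeR adjusted p = 0.104). Amigo2 was at 3.55 to 6.37 CPM in the apex against 7.21 to 24.5 CPM in the base (log2 change 1.75, edgeR adjusted p = 0.104), and at 2.05 (SE 0.411, unadjusted p = 0.000189) in the 13 construct libraries.

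Genes of cholesterol synthesis had higher values in the base without a call. All 19 had a positive log2 change, with a median of 0.58 and a range of 0.08 to 1.43. Every base library was above every apex library for 4 of the 19 (21.1%, against 2.64% of all genes), and the reverse held for 0. Hmgcs1, an early enzyme of the pathway, was at 403, 345, 382 and 459.8 CPM in the apex and 573, 407, 1141 and 679.7 CPM in the base (log2 change 0.81, edgeR adjusted p = 0.362), and Sqle, the squalene epoxidase, at 148, 122, 112 and 152 and 199, 151, 170.1 and 181 CPM (log2 change 0.39, edgeR adjusted p = 0.305). From highest to lowest, the base libraries came in the order 3, 4, 1 and 2 for Hmgcs1 and 1, 4, 3 and 2 for Sqle. For the Schwann cell and myelin sum the order was 3, 1, 4 and 2, from 30734 CPM to 15992 CPM. Myelin-forming cells are known for high cholesterol synthesis. Their part in these values was not tested. Of 31 genes of the mitochondrial respiratory chain 27 were positive, with a median of 0.16. Of 32 neurofilament and axonal cytoskeleton genes 7 were positive, with a median of -0.18, and 4 (12.5%, against 2.85% of all genes) had every apex library above every base library. Nefl was at 3757 to 4444 CPM in the apex against 2935 to 3504 CPM in the base (log2 change -0.34, edgeR adjusted p = 0.142), and Nefm at 2645 to 3276 and 2171 to 2617 CPM (log2 change -0.32, edgeR adjusted p = 0.207), and the exons of these 2 genes overlap on opposite strands.

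Other lists had 0 calls in both fits, where 0 of 14968 and 37 of 13421 genes (0.276%) were called. Of 16 interferon response genes 4 were positive (median -0.85). Every apex library was above every base library for 4 of them (25%, against 2.85% of all genes), which include Isg15 (log2 change -1.76), Bst2 (-1.65) and Oasl2 (-1.44). The reverse held for 1, Ifi27 (0.73; 6.25%, against 2.64%). The macrophage marker sum, given below, overlapped between regions and was highest in apex replicate 4 at 495 CPM, and the part of such cells was not tested.

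Of 22 Eph receptor and ephrin genes 10 were positive (median -0.24). Every base library was above every apex library for 3 of them (13.6%, against 2.64% of all genes), Ephb1, Efnb1 (0.54) and Epha6 (3.71), and the reverse held for 0. Of 41 genes of regional patterning 23 were positive (median 0.22). In that list Igfbp3, a binding protein of insulin-like growth factors, and Eya1, a transcriptional coactivator, were lower in each base library than in each apex library (-1.04 and -0.59; 4.88%, against 2.85%). Aldh1a2, a retinoic acid synthesis gene, was higher in each base library (4.61; 2.44%, against 2.64%). Of 33 immediate early and activity-regulated genes 18 were positive (median 0.02) and regions were apart for 0.

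Of 21 receptor genes for GABA, glycine and acetylcholine 10 were positive (median -0.00). Every apex library was above every base library for 5 (23.8%, against 2.85% of all genes) and the reverse held for 0. Of these 5, Chrna4 was the only one with a mean above 3 CPM in either region. Chrnb4 had a mean of 2.41 CPM in the apex and 0.017 CPM in the base, and Gabra4 1.89 and 0.227 CPM (n = 4 each). The glycine receptor genes Glra1 and Glra2 averaged 0.462 and 0.506 CPM in the apex, with 0 counts in the base. These values are from the fit of all 21 libraries.

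**Figure D4:**
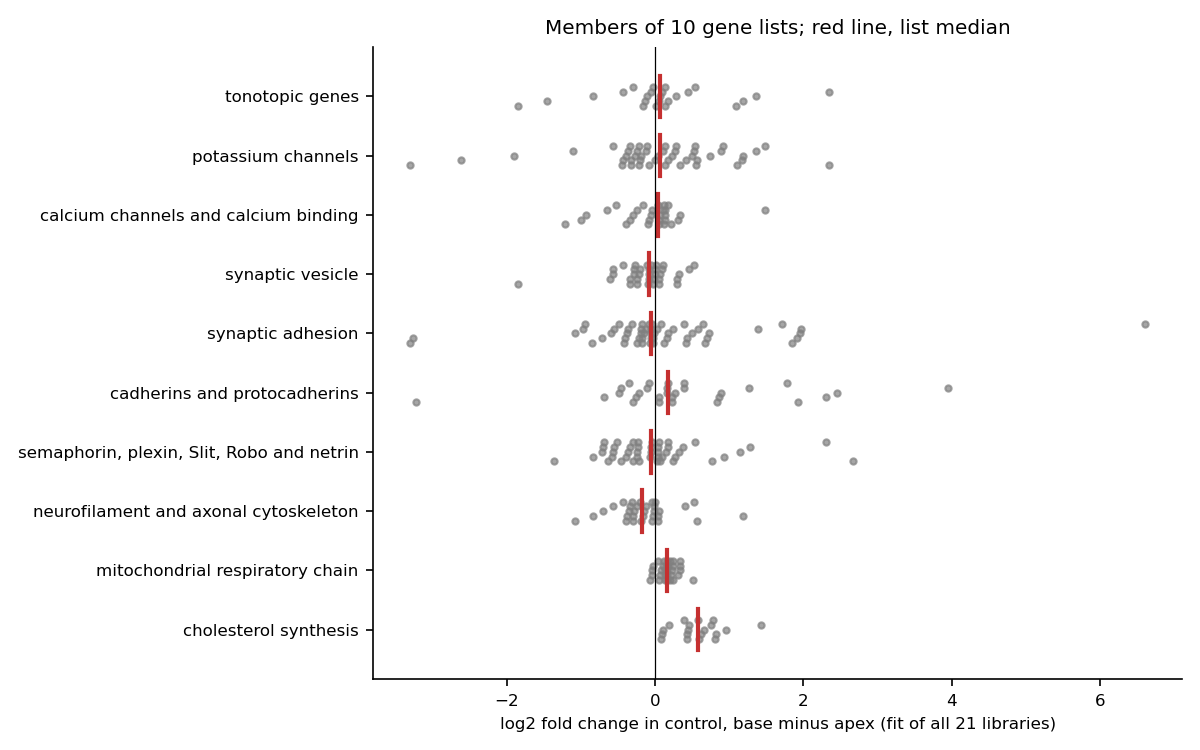
Log2 fold change of base minus apex in control for the tested members of 10 gene lists (grey points, fit of all 21 libraries), with the list median as a red line. Most medians lie within 0.2 of 0, and that of cholesterol synthesis is at 0.58.

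Myelin genes of the central nervous system had large differences between the regions, without a call in either fit. Mobp, a myelin protein gene of oligodendrocytes, was at 2.55, 0.926, 0.813 and 0.834 CPM in the apex and 786, 9.12, 671 and 359 CPM in the base, a log2 difference of 8.48 (SE 1.55) with an edgeR adjusted p of 0.132. Olig1, an oligodendrocyte transcription factor gene, was at 0.0774, 0, 0.339 and 0.0695 CPM and 115, 1.2, 95.7 and 48.3 CPM (log2 change 8.90, edgeR adjusted p = 0.136). Base replicate 2 was far below the other 3 base libraries for both. Olig2 had 0 counts in the 4 apex libraries and was at 18.8, 0.0707, 1.29 and 5.98 CPM in the base, at least 120-fold higher in the base on a floor of 3 counts over the apex group. The bound rests on base replicate 1 and was 44.9-fold without it. The 16 oligodendrocyte markers, of which Olig2 and Nkx2-2 were at 0 in the apex, summed to 265, 203, 250.5 and 254 CPM in the apex and 2363, 286, 1891 and 1407 CPM in the base. All 16 had a positive log2 change, with a median of 6.54. Ptgds, a prostaglandin synthase gene, was at 37.5, 33.4, 24.5 and 67.5 CPM in the apex and 932, 667, 828 and 58.3 CPM in the base (log2 change 3.93, edgeR adjusted p = 0.199), with base replicate 4 among the apex values. Gfap was at 0, 1.78, 0.0678 and 0 CPM in the apex and 18.4, 3.46, 16.6 and 19.8 CPM in the base (log2 change 4.97, edgeR adjusted p = 0.216).

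Cldn11 and Bcas1 were the most abundant oligodendrocyte markers beside Mobp. Cldn11 was at 0.619, 8.41, 1.29 and 5 CPM in the apex and 478, 17.2, 486 and 361 CPM in the base (log2 change 6.45, edgeR adjusted p = 0.169). Bcas1 was at 115, 89.6, 104 and 123 CPM and 162, 130.1, 161 and 167 CPM (log2 change 0.52, edgeR adjusted p = 0.14). Bcas1 was thus abundant in apex libraries that nearly lacked Mobp and Olig1. In the construct conditions Mobp was at 0.523 to 0.995 CPM in DN-mHCN2 apex, 0.734 to 9.36 CPM in DN-mHCN2 base, 0.88 to 0.934 CPM in truncated_SK3 apex and 2066, 17.8 and 45.5 CPM in truncated_SK3 base. Every apex library of the 3 conditions was under 3 CPM for Mobp.

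Hair cell markers had higher values in 3 of the 4 apex libraries than in any base library. The 20 markers summed to 415, 1584, 99.96 and 639 CPM in the apex and 85.2, 105, 75.2 and 109 CPM in the base, and 1 of 19 tested had a positive log2 change (median -2.93). Apex replicate 2 was the highest and apex replicate 3 within the range of the base. Ocm, oncomodulin, a calcium buffer of outer hair cells, was at 254, 1056, 4.47 and 419 CPM in the apex and 8.19, 1.48, 2.1 and 2.53 CPM in the base (log2 change -6.96, edgeR adjusted p = 0.223). Pou4f3, a hair cell transcription factor gene, was at 1.32, 42.5, 0.0678 and 5.84 CPM in the apex and at 0 counts in the 4 base libraries, at least 226-fold higher in the apex on a floor of 3 counts over the base group. The bound rests on apex replicate 2 and was 43.8-fold without it. Gfi1 was the other marker at 0 in the base. The motor protein gene Slc26a5 of outer hair cells was at 0.387, 68.8, 0.136 and 18.2 CPM in the apex and 0.174, 0, 0.0679 and 0.0704 CPM in the base, and Otof at 2.71, 23.2, 0.474 and 3.75 and 0, 0, 0.204 and 0.915 CPM.

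**Figure D5:**
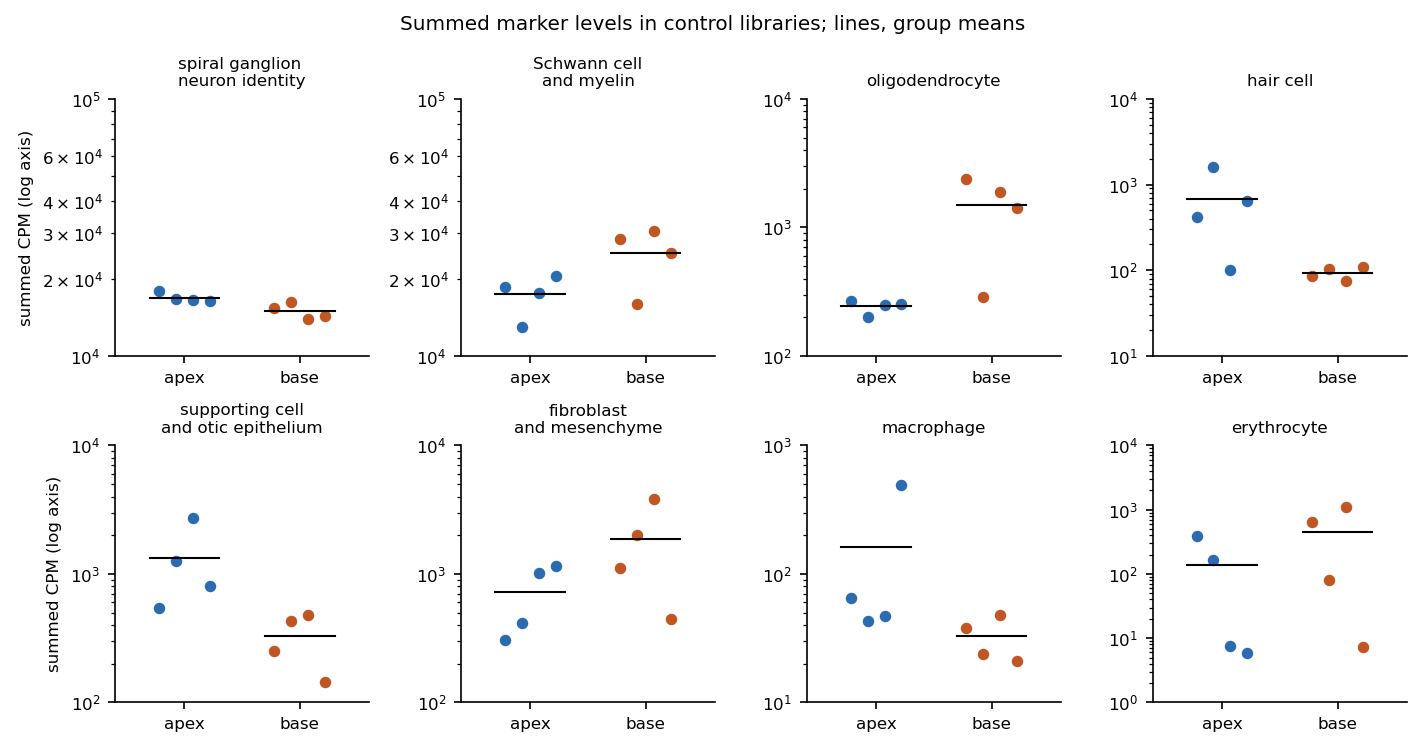
Summed CPM of 8 marker lists in each control library, on log axes of whole decades (blue apex, orange base; points are libraries, lines group means). The oligodendrocyte sum is higher in every base library than in every apex library, with base replicate 2 close to the apex range, and the supporting cell sum is higher in every apex library when Tectb is counted, whereas without it apex replicate 1, at 260.2 CPM, lies within the base range.

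Macrophage markers, 14 genes, summed to 64.7, 42.8, 46.8 and 495 CPM in the apex and 37.7, 24, 47.9 and 21 CPM in the base, overlapped between regions and had 0 of 14 positive log2 changes. Fibroblast markers, 12 genes, summed to 306, 415, 1020.4 and 1152 CPM and 1118, 2009.6, 3848 and 445 CPM, with overlap. Erythrocyte genes, 5 in number, varied by library within both regions, at 383, 163, 7.66 and 5.84 CPM in the apex and 649, 79.8, 1091 and 7.18 CPM in the base. The 37 calls come from libraries that differ in these sums, and the part of these cells in them was not tested.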

How the data were processed

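The authors deposited raw read counts per gene symbol, with 1 column per library. Per the submitters' processing notes, the tools were Trimmomatic, HISAT2 and DESeq2, in versions not stated, with the builds GRCm38 and mm10; the counter, its strand setting and the annotation are not given in the sources used here. Libraries were grouped by their titles. Genes were filtered with filterByExpr, scaled by TMM and tested with the robust quasi-likelihood test of edgeR 4.0.16 in R 4.3.3, with Benjamini-Hochberg adjustment over all tested genes and a threshold of 0.05. CPM are counts relative to the TMM-scaled library total. The designed fit held all 21 libraries with 1 mean per group. A second fit held the 8 control libraries only, and a fit of the 13 construct libraries only was added after seeing the data. Because the designed fit made no call, most log2 changes and adjusted p-values of single genes in the report come from the control libraries only.

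The members and lists were chosen with earlier results of these data known. By the naming rule, the text named called genes, 24 tonotopic genes, the 10 genes of lowest p if under 10 passed, genes called in an interaction, and the 3 most abundant members of cell lists that differed; the designed fit called none, so the 37 genes and further family members lie outside it and were chosen after their values were seen. Some genes so named are not reported here. Positions and overlaps are from GENCODE M21 on GRCm38, which held 14455 of 14968 tested symbols (96.6%). Among named genes that were not called, exons of Adgrl1, Adgrl3, Amigo2, B4galnt3, Bcas1, Bdnf, Chrnb2, Cntn5, Ephb1, Epyc, Hmgcs1, Kcnd3, Kcnip4, Kcnma1, Lypd1, Myh7b, Nefl, Nefm, Nr2f1, Nr2f2, Olig1 and Tenm4 overlap an antisense gene, and those of Colq, Kcnab2, L1cam and Mobp another gene on the same strand, so their values are uncertain. Sequence sharing is the percent of 50-base stretches of a gene's transcript found in another gene. In 27 lines of the table a date stands in place of a symbol, and none is named here. The tests were also run on simulated counts, drawn gene by gene, which do not model uneven cell content between libraries. Their outcome is not reported here. Alternatives were RLE size factors, other low-count filters, DESeq2 1.42.0, voom of limma 3.58.1, a non-robust fit, the replicate number as a block, and each library left out in turn.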

Additional observations from a re-analysis of the deposited data

Results flagged for a closer look

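Single libraries stood apart from the other 3 of their group in 19 of 282 groups checked by Dixon's test at the 95% level, where chance gives about 1 in 20. Among the genes of the report, apex replicate 2 was the highest apex library for Tenm3 at 148 CPM, Pou4f3 at 42.5 CPM, Otof at 23.2 CPM and Gfap at 1.78 CPM. Kcnab2 was highest in apex replicate 3 at 197 CPM, as was Ntf3 at 0.949 CPM, and Mobp in apex replicate 1 at 2.55 CPM. In the base, replicate 1 was the highest for Ntm at 122 CPM, Ocm at 8.19 CPM and B4galnt3 at 0.61 CPM, replicate 4 was the highest for Myh7b at 38.4 CPM, and replicate 2 the lowest for Bcas1 at 130.1 CPM.

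Summed lists also had such libraries. Apex replicate 4 had the highest sums for macrophage markers at 495 CPM, satellite glia at 1095 CPM and cell division at 100.1 CPM, and the lowest for type I subtypes at 5557 CPM. Neuronal markers were highest in apex replicate 1 at 17962 CPM and neutrophil markers in apex replicate 2 at 9.73 CPM. The immediate early and activity-regulated sum was highest in base replicate 3 at 4894 CPM.

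The regional difference of the macrophage gene Adgre1 differed between DN-mHCN2 and control, with an interaction of 16.11 on the log2 scale and an edgeR adjusted p of 0.0278. The fitted value depends on the prior count where a group is at 0 and is no measure of size. The macrophage marker sum was 27.9, 1354 and 1589 CPM in DN-mHCN2 base replicates 1 to 3 and 5.38 to 29.9 CPM in its apex. In control it was 42.8 to 495 CPM in the apex, highest in replicate 4, and 21 to 47.9 CPM in the base. The part of such cells in the interaction was not tested.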

How the results depend on the processing

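The designed fit of all 21 libraries called 0 genes with RLE size factors, other low-count filters and a non-robust fit as well. DESeq2 called 82, limma-voom 42, the replicate block within a condition 6, and leaving out each library between 0 and 2, with 2 without base replicate 4. The control libraries by themselves called 37, and 49 with the replicate block. The mean of the regional differences over the 3 conditions called 173 and that over the 2 construct conditions 28, both added after seeing the data.

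For the control libraries by themselves, alternatives were added after seeing the data. A filter of 10 CPM in 3 libraries called 58 genes (33 of the 37 among them), DESeq2 458 (37), limma-voom 18 (18) and the replicate block 49 (23), and leaving out each library gave 12 to 122 (10 to 33 of the 37). Same-numbered apex and base libraries correlated at 0.19, 0.03, 0.27 and -0.06 in their deviations, and 5 of 8 correlated best with their own number. These values do not settle whether the numbers mark pairs. The labels do not say that a number marks a shared animal, and the libraries were treated as unpaired for that reason.

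The interaction of DN-mHCN2 called 126 genes by DESeq2, 0 by limma-voom, 0 with the replicate block and 0 to 34 without 1 library, with 34 without DN-mHCN2 base replicate 1. That of truncated_SK3 called 18 by DESeq2 and 0 to 0 without 1 library. The cause of these shifts was not tested.

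Signs turned for genes near 0. Without 1 library the log2 changes ran from -0.095 to 0.37 for Kcnc1, -0.25 to 0.011 for Kcnma1, -2.20 to 2.61 for Ntf3, -0.075 to 0.071 for Ntrk2, -0.29 to 0.18 for Pou4f1, -0.10 to 0.30 for Nr2f2, -0.11 to 0.016 for Snap25, -0.15 to 0.094 for Chrnb2, -0.11 to 0.10 for Adgrl1, -0.22 to 0.11 for Tenm2 and -0.32 to 0.10 for Tenm4. Limma-voom gave 0.054 for Pou4f1, 0.038 for Chrnb2, 0.0066 for Adgrl1 and 0.14 for Tenm4. The filter of 10 CPM gave -0.0041 for Ntrk2. The replicate block gave 0.032 for Ntf3 and 0.0066 for Tenm4, and 0.00041 for Tenm4 in the control libraries by themselves.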
